A study of Mus musculus with 104 samples.

Results

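Of the 38 single-neuron libraries titled experiment, the 13 with the most Psat1 transcript were set against the 13 with the least, so 26 of the 104 libraries in the series are compared here. Each library was ranked by its Psat1 CPM (counts scaled to a common total of gene counts, with spike-in rows left out). The members were chosen by these Psat1 values, so the difference in Psat1 is a selection and not a finding. Every other gene was measured in the same libraries and is reported as a description.

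The libraries hold RNA drawn by patch pipette from single neurons of mouse substantia nigra slices, cut after tribromoethanol anaesthesia and perfusion, and amplified by the Smart-seq2 protocol before library making with the HyperPlus kit. The design text describes picking neurons that carry inclusions of α-Syn-6H-EGFP, a fluorescent alpha-synuclein reporter, in the pars compacta (SNc), and every library is labelled dopaminergic neuron. The titles name 38 libraries experiment and 66 control, and what the control neurons were is not stated in the labels. No label gives the strain, age, promoter of the reporter or the animal of any library. Each side was therefore counted as 1 sample, no test was made, and every interval covers counting error only. In a single pipette, a low or missing count can come from little transcript in the neuron or from little cytoplasm drawn. These cannot be told apart. CPM is scaled to each library's own gene counts, so it does not measure the amount drawn.

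Psat1 encodes phosphoserine aminotransferase, the middle enzyme of the pathway that makes serine from the glycolytic intermediate 3-phosphoglycerate. Phgdh starts that pathway, Psph ends it, and Shmt2 passes the serine carbon into mitochondrial folate metabolism. In the brain these enzymes are best known from astrocytes, which supply neurons with serine. The same genes are targets of ATF4, the transcription factor of the integrated stress response. That response starts when kinases phosphorylate the translation factor eIF2, and ATF4 is then translated and switches on amino acid synthesis, amino acid transporters, tRNA charging enzymes, and the second factor CHOP (Ddit3). Lists of genes for each of these roles are described below, with Psat1 left out of all of them.

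Psat1 was 302 CPM in the lowest, 467 CPM in the median and 752 CPM in the highest of the 13 Psat1-high libraries. In the 13 Psat1-low libraries it was at most 5.08 CPM, and 10 of them had no Psat1 count. The 12 libraries between lay from 31.03 to 216 CPM, so the level just outside the high side was 216 CPM and that just outside the low side was 31.03 CPM. Over the 66 control libraries Psat1 ranged from 0 to 368 CPM with a median of 2.17 CPM, and 30 had no count.

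**Figure D1:**
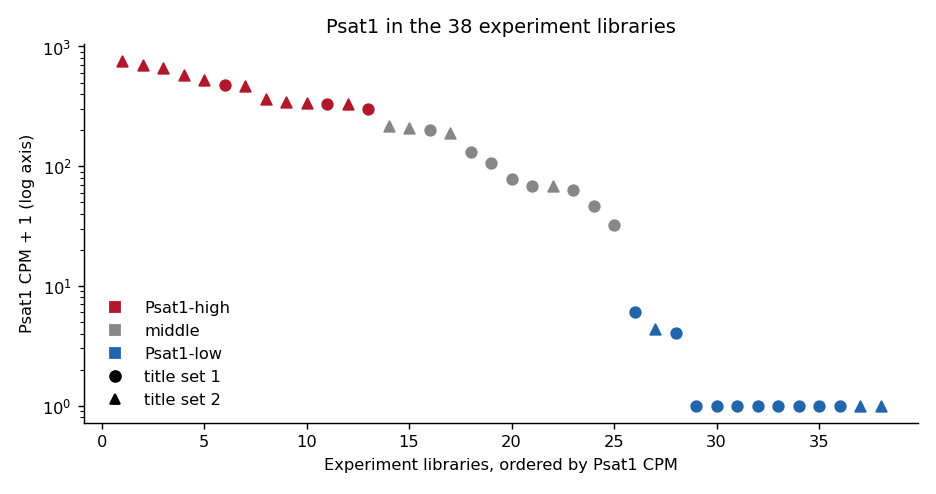
Psat1 CPM plus 1 (log axis) in each of the 38 experiment libraries, ordered from highest to lowest, with colour for the side and marker shape for the title set. The 13 Psat1-high libraries lie at 302 CPM or above, the 13 Psat1-low libraries at 5.08 CPM or below, and the high side holds mostly title set 2.

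The sides were not balanced over the order of the records. The records list experiment numbers 36 and above beside control numbers 38 and above as a block of their own, here called title set 2. The labels do not call these blocks batches and give no order in time. Inside each set the records alternate between shorter runs of experiment and control titles, and values were not repeated within those runs. The Psat1-high side held 3 libraries of set 1 and 10 of set 2, and the Psat1-low side held 10 and 3. Depth also differed, from 471891 to 1559777 gene counts on the high side and from 116567 to 2779816 on the low side, with medians of 1019794 and 891184. Thinned to 400000 counts, the median library held 6892 genes on the high side (13 libraries) and 7184 on the low side (9 libraries deep enough). Mitochondrial transcripts took a median of 4.17% and 4.30% of gene counts, and spike-ins 0.557% and 0.404% of counts.

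A gene was called higher by the 2-fold rule if it was at least 2-fold higher in summed counts (pooled CPM) and in the mean of library CPM, and if the high library exceeded the low one in at least 75% of all pairs of a high and a low library (the pair share). Of 8703 expressed genes, 120 (1.38%) were higher by this rule and 76 (0.873%) were lower in the Psat1-high libraries. Without experiment 24, a Psat1-low library of 196941 gene counts, 124 genes were lower. The serine, transporter, ATF4 and tRNA synthetase lists together had 62 expressed members, of which 20 were called higher and 0 lower. Of the 20 genes with the highest pair share among all 8703, 8 were members of these lists, led by Gars at 98.2% and Asns at 97.0%. Over the 8703 genes the median log2 ratio was 0.08, with 46.3% higher and 38.7% lower by both weightings, so list medians are read beside that value.

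The ATF4 and CHOP list was the most uniform. All 18 expressed members were higher in the Psat1-high libraries by both weightings, 12 of 18 were called, against the background of 1.38%, and the median log2 ratio was 1.86. The list has 32 members, and a gene could pass the expression filter through counts on 1 side alone. The 18 may therefore favour genes high on 1 side. With no minimum CPM the list median was 1.47. The 12 were Atf4, Chac1, Sesn2, Asns, Ppp1r15a, Pck2, Gpt2, Pycr1, Aldh18a1, Eif2s2, Nars and Sars. The list was chosen with earlier results of these data known, and its count is no independent evidence of direction.

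ATF4 acts on many of its targets through a short composite element for an ATF and a C/EBP protein, TGATGNAA. The 250 bases before the RefSeq transcription start were searched for it on both strands, so that the reverse complement TTNCATCA also counts. Among called members of the 4 lists with a RefSeq promoter, 5 of 16 windows (31.25%) held a match, against 4 of 38 windows (10.5%) of the members not called, those of Aars, Atf3, Tars and Vldlr. By list, 6 of 19 ATF4 windows and 3 of 13 tRNA synthetase windows held one, against 0 of 10 serine and 0 of 13 transporter windows. The shares by call therefore also depend on which lists the members come from. Within the ATF4 list, called (Asns, Chac1, Pck2, Pycr1) and uncalled members (Atf3, Vldlr) both held a match. A match was in 3.45% of all 32851 promoters and 2.02% of those of expressed genes, and the ATF4 list itself was built from known ATF4 targets. All called genes, higher and lower, held it in 6.25% of windows each. The 5 windows of called list members are shown because their genes carry the difference described next, each 5′ to 3′ on the gene's strand with the match in capitals.
Asns: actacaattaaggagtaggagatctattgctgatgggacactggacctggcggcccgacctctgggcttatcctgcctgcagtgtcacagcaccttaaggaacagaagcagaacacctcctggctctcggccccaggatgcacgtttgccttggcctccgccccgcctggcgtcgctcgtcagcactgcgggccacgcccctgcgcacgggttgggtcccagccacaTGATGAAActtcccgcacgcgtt
Chac1: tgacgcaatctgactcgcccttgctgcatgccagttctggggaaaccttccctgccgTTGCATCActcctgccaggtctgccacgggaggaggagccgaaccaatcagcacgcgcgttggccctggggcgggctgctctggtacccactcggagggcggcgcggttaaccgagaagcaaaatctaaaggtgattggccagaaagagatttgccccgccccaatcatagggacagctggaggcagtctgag
Pck2: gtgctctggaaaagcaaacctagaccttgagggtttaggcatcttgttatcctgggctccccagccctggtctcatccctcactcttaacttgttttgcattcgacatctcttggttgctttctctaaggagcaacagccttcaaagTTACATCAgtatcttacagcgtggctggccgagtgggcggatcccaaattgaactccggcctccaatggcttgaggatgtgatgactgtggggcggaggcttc
Pycr1: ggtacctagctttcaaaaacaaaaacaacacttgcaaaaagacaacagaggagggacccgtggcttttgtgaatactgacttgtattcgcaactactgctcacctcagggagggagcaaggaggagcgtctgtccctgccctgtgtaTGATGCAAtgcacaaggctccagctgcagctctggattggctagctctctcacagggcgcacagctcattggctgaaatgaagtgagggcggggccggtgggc
Gars: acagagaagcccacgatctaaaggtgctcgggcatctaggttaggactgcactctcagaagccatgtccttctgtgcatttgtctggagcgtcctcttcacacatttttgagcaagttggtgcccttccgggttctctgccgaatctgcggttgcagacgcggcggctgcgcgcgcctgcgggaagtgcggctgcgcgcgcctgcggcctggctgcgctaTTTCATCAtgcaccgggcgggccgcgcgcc

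The windows lie in mouse build GRCm38.p6 (mm10), that of Asns at chr6:7693210-7693459 on the minus strand and that of Chac1 at chr2:119350992-119351241 on the plus strand. Those of Pck2 and Gars are chr14:55540016-55540265 and chr6:55037751-55038000, both on the plus strand, and that of Pycr1 is chr11:120643749-120643998 on the minus strand. The match began 23 bases before the start in Asns, 30 in Gars, 103 in Pck2 and in Pycr1, and 193 in Chac1. Asns and Pycr1 carried the forward orientation, and the other 3 the reverse one. A match describes the letters of a window and is not evidence of binding.

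Asns, the asparagine synthetase that is a standard readout of ATF4 activity, was 325.5 CPM in the lowest, 888 CPM in the median and 1588 CPM in the highest Psat1-high library. In the Psat1-low libraries it was 0, 223 and 675 CPM. All 13 high libraries exceeded the low median, and 10 exceeded the highest low library. Pooled over libraries, Asns was 918 against 278 CPM, 3.30-fold higher (95% counting interval 3.17 to 3.43), with 308 CPM in control. The middle libraries had a median of 359 CPM, between the sides.

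Atf4 itself, whose protein is controlled mostly at translation, was 241 CPM pooled on the high side and 86.5 CPM on the low side, 2.79-fold higher (2.60 to 2.99). Its library values overlapped, from 4.90 to 688 CPM with a median of 237 on the high side and from 0 to 256 CPM with a median of 77.5 on the low side, a pair share of 77.5%. Ddit3, which encodes CHOP, missed the 2-fold rule at 257 against 141 CPM, 1.81-fold (1.71 to 1.93). It was nonetheless above the low median in 13 of 13 high libraries, with a pair share of 87.0%. Atf3, another stress-induced factor, was 67.1 against 15.6 CPM but had counts in only 7 and 6 libraries and a pair share of 58.6%.

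Among the targets with the largest ratios, most low libraries had no count. Chac1, an enzyme that degrades glutathione and a late ATF4 and CHOP target, was 264 against 16.9 CPM pooled, with counts in 10 and 4 libraries and medians of 217 and 0 CPM. Sesn2, a stress-induced sensor that restrains mTORC1, was 189 against 6.98 CPM, with counts in 8 high libraries and 1 low library. A single library, experiment 46, gave 44.3% of the Sesn2 counts on the high side, and the ratio without it was 17.1. The only low library with a count held 54.5 CPM, and 8 of 13 high libraries exceeded it.

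Both enzymes that lead from glutamate to proline were called. Aldh18a1, which makes the proline precursor, was 181 CPM on the high side and 9.03-fold higher (medians 115 and 0), and Pycr1, which completes proline, was 74.9 against 5.28 CPM (medians 49.4 and 0). Pck2, the mitochondrial form of PEPCK, was 103 against 14.1 CPM, and Gpt2, the mitochondrial alanine transaminase, was 123.2 against 9.96 CPM. Each of these 4 genes had counts in 9 to 12 high libraries and in 3 to 7 low libraries. Of these 4, the low side of Pck2 lay furthest below control, at 0.18 times the control level of 79.5 CPM, while its high side was 1.30 times control.

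Ppp1r15a and Eif2s2, which belong to translational control, were also called. Ppp1r15a, the phosphatase subunit that reverses eIF2 phosphorylation, was 178 against 67.6 CPM, 2.64-fold (2.43 to 2.86), with a pair share of 75.1%. Eif2s2, the beta subunit of eIF2, was 328 against 142 CPM, 2.31-fold (2.19 to 2.45), and was detected in all 26 libraries. The expressed members outside the call, Ddit3, Atf3, Cebpg, Vldlr, Eif4ebp1 and Bbc3, had pooled ratios from 1.74 to 5.48 and pair shares from 55.6% to 87.0%.

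Summed over the list, the sides did not overlap. The ATF4 and CHOP members totalled 3582 CPM in the lowest, 4485 in the median and 6797 in the highest Psat1-high library, and 713, 1692.5 and 2407 CPM in the Psat1-low libraries. The 66 control libraries ranged from 876 to 2622 CPM with a median of 1844, so every Psat1-high library lay above every control library. The low side overlapped the control range, and its lowest library, at 713 CPM, lay below every control library. Within set 1 the 3 high libraries (3582, 3866 and 4485 CPM) exceeded the 10 low ones (at most 2158), and within set 2 the 10 high libraries (at least 3720) exceeded the 3 low ones (at most 2407). Without Asns, Nars and Sars the sum was 1314 to 3932 CPM on the high side and 412 to 1036 CPM on the low side, and 5 control libraries then reached the lowest high library. Only 7 of 13 high libraries, and 0 of the 3 in set 1, then exceeded the highest control library (1884 CPM).

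The middle libraries spanned both. Their list sum ran from 452 to 4522 CPM with a median of 2159, and 3 of 12, all in set 2, reached the range of the high side. Experiment 44 had the sum of 4522 CPM at 67.2 CPM of Psat1, experiment 56 had 4082 CPM at 188 CPM of Psat1, and experiment 41 had 3726 CPM at 209 CPM. A high ATF4 sum also occurred below the Psat1 threshold. The converse was seen in control 7, the control library highest in Psat1 (368 CPM), whose list sum was 2466 CPM and lay in the control range, beside an astrocyte marker sum of 1022 CPM. That library also held oligodendrocyte and GABAergic marker sums of 4737 and 1115 CPM. Its dopaminergic identity sum was 4969 CPM, against a control median of 28981 CPM. The source of its Psat1 was not tested.

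**Figure D2:**
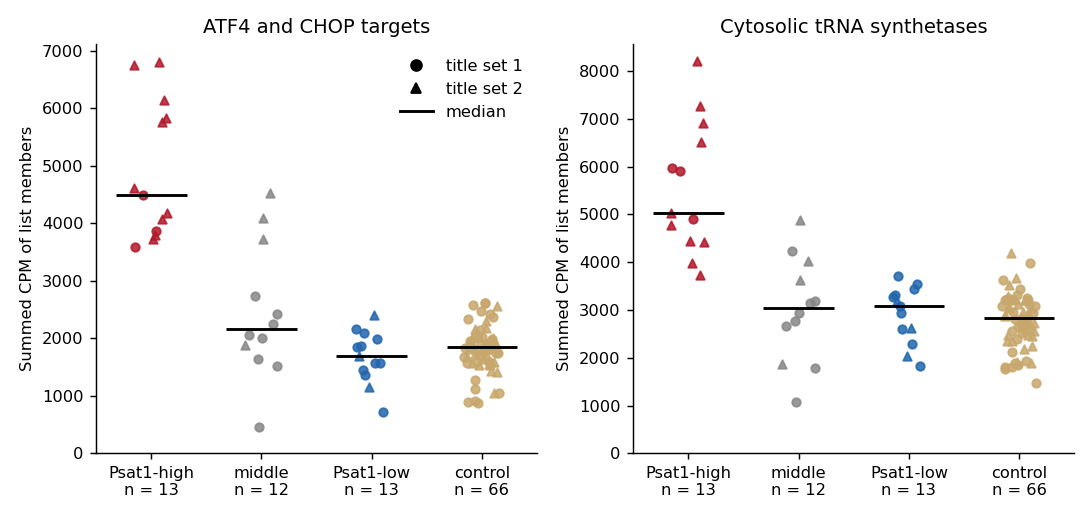
Summed CPM of the members of the ATF4 and CHOP list (left) and of the 20 cytosolic tRNA synthetases (right) in each library, by side, with title sets as marker shapes and the median as a bar. The 13 Psat1-high libraries lie above all Psat1-low and control libraries on the left, and above all Psat1-low but not all control libraries on the right.

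Aminoacyl-tRNA synthetases load each tRNA with its amino acid, and many cytosolic members carry ATF4 elements. All 20 cytosolic members were expressed, 17 were higher by both weightings, and 5 were called, against the background of 1.38%. The called members were Gars, Sars, Nars, Cars and Mars, which charge glycine, serine, asparagine, cysteine and methionine tRNAs, and Nars and Sars also stand in the ATF4 list. The median log2 ratio was 0.73.

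Gars was the gene that best separated the sides. It ranged over 372, 654 and 1056 CPM (lowest, median and highest) in the Psat1-high libraries and over 0, 184 and 533 CPM in the Psat1-low ones. Of the 13 low libraries, 12 were below the lowest high library. Pooled, it was 3.62-fold higher (3.46 to 3.79), 680.04 against 188 CPM, beside 220 CPM in control.

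Sars was 440, 872 and 1659 CPM on the high side and 24.3, 422 and 575 CPM on the low side, 2.49-fold higher when pooled (2.40 to 2.58), with a pair share of 93.5%. Nars was 888 against 324 CPM, 2.74-fold (2.64 to 2.84), Cars 258 against 93.5 CPM, 2.75-fold (2.57 to 2.95), and Mars 285 against 52.5 CPM, 5.43-fold (4.99 to 5.92). Exons of Mars overlap those of Ddit3 on the other strand, and exons of Cars, Ppp1r15a, Pck2 and Shmt2 overlap other-strand genes too. The strand setting of the counting is unknown here, so reads of such pairs cannot be told apart.

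The remaining synthetases were graded. Tars, for threonine, was 152 against 11.8 CPM, 12.9-fold (10.8 to 15.4), and missed the call by its pair share of 74.6%. Iars, Lars and Dars were 3.50, 4.44 and 2.49-fold higher when pooled with pair shares of 64.8%, 61.5% and 74.6%. Kars, Rars and Vars lay slightly below 1, at 0.77, 0.76 and 0.96.

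The summed list was 3741, 5028 and 8208 CPM (lowest, median, highest) on the high side and 1823, 3081 and 3708 CPM on the low side. The gap between the sides was only 0.01 on the log2 scale. Control libraries ran from 1463 to 4198 CPM, so 11 of 13 high libraries lay above all of them. Without Nars and Sars the sides overlapped. Then 12 of 13 high libraries exceeded the highest low library and 8 of 13 the highest control library. In turn, 7 of 13 low and 13 of 66 control libraries reached the lowest high library. The 13 expressed mitochondrial synthetases had 0 calls, and their median log2 ratio of 0.14 was near that of all genes. That median was unstable, at -2.26 in set 1 alone and 0.87 in set 2 alone. It ran from -0.20 to 0.79 with single libraries left out.

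In the serine and one-carbon list, 12 members were expressed, 9 were higher by both weightings, and Phgdh and Shmt2 were called, against the background of 1.38%. The median log2 ratio was 1.22. Phgdh, the first enzyme of the pathway, had a count in 10 of 13 high libraries (median 237, highest 447 CPM) and in 4 of 13 low libraries (median 0, highest 77.0 CPM). All 10 high libraries with a count exceeded every low library. Pooled, it was 180.3 against 22.7 CPM, 7.93-fold (6.99 to 9.04), beside 15.3 CPM in control.

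Shmt2 had counts in 12 and 4 libraries, with medians of 160.1 and 0 CPM and pooled values of 164 and 36.2 CPM, 4.52-fold (4.07 to 5.03). Psph, which completes serine synthesis, was 144 against 36.7 CPM, 3.93-fold (3.54 to 4.38), with a pair share of 71.6%. Mthfd2, the mitochondrial folate dehydrogenase, was 257 against 75.5 CPM, 3.40-fold (3.16 to 3.67), with a pair share of 73.4%. Aldh1l2, the mitochondrial formyltetrahydrofolate dehydrogenase, was 56.2 against 5.96 CPM but had counts in only 7 and 4 libraries.

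The list sum overlapped between the sides. It was 208, 1037 and 1732 CPM on the high side and 58.2, 449 and 963 CPM on the low side, with 8 of 13 high libraries above the highest low one. Control libraries reached 760 CPM, and 10 of 13 high libraries exceeded them.

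Of 14 expressed amino acid transporters, 3 were called, against the background of 1.38%. The median log2 ratio was 0.21, or -0.07 without experiment 7. The called genes were the large neutral amino acid exchanger Slc7a5, its partner chain Slc3a2 and the cationic carrier Slc7a3. Slc7a5 was 156 against 4.60 CPM pooled, with counts in 12 and 5 libraries. Its low side stood at 0.25 times the control level of 18.2 CPM, and its high side at 8.56 times it. Slc3a2 was 196, 670.3 and 1098 CPM on the high side and 0, 196 and 518 CPM on the low side, 2.93-fold (2.80 to 3.07). Slc7a3 was 387 against 31.7 CPM, 12.2-fold (11.0 to 13.6).

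The remaining carriers were mixed. Slc38a2, an ATF4-responsive carrier of small neutral amino acids, was 196 against 168.7 CPM, 1.16-fold (1.10 to 1.23), and Slc38a1 was 1.15-fold. Slc1a4, which carries serine and alanine, was 229 against 70.1 CPM with a pair share of 68.6%. Slc6a15 and Slc6a17, neuronal neutral amino acid carriers, were lower at 0.62 and 0.22.

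**Figure D3:**
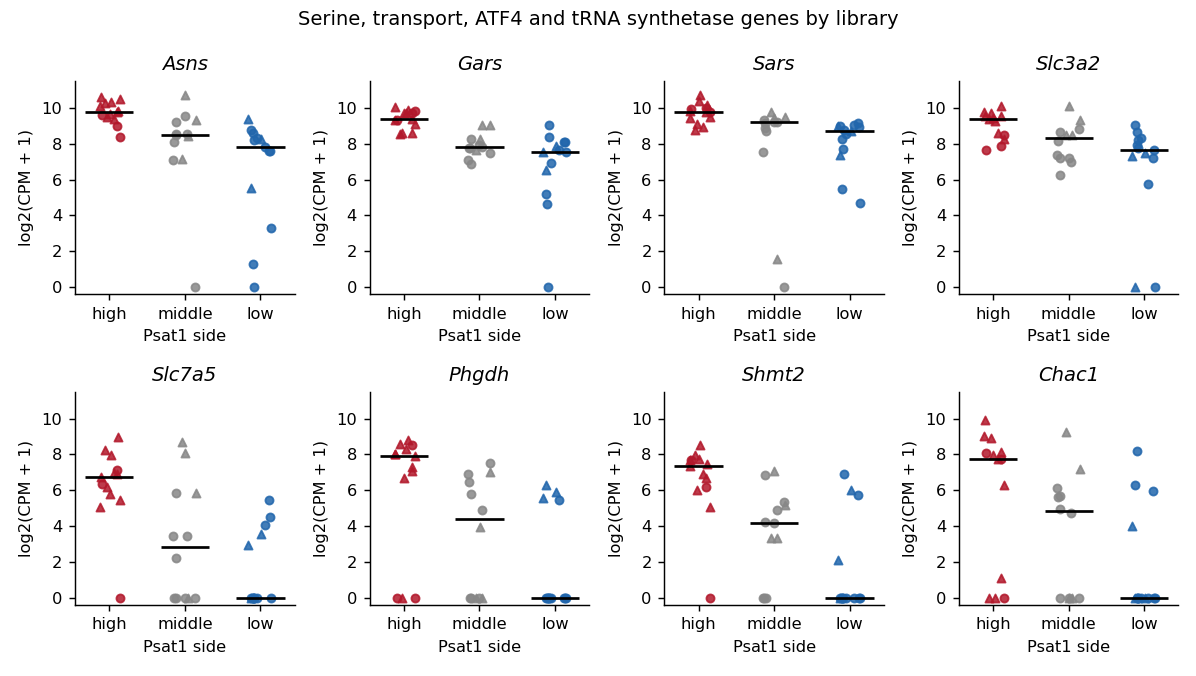
log2(CPM + 1) of 8 genes in each experiment library, by Psat1 side, with title sets as marker shapes (circles set 1, triangles set 2) and the median as a bar. Asns, Gars and Sars are detected in all 13 high libraries at levels above most low libraries, while Slc7a5, Phgdh, Shmt2 and Chac1 have low-side medians of 0.

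The control libraries give each side a reference level. In pooled CPM, 20 of the 20 called members of the 4 lists were higher on the high side than in control, against 50.9% of expressed genes, and 15 of 20 were lower on the low side than in control, against 53.8%. For 19 of 20 the middle libraries lay between the sides. The 20 were called from these same high and low libraries, so these counts partly follow from the call. Expressed genes as a whole are no matched reference for them. Relative to control, the ATF4 list had a median log2 ratio of 1.58 on the high side and -0.43 on the low side, the tRNA synthetases 1.04 and -0.25, and the serine list 2.01 and 0.52.

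Title set moved with the sides, so the values were repeated inside the sets. Of the 20 called members, 18 had a pooled ratio above 1 in both sets, against 24.9% of all expressed genes. The exceptions were Slc3a2 and Gpt2, at 0.97 and 0.19 in set 1, where the high side holds 3 libraries. The 20 were called from libraries used again here, so counts of them inside the sets partly follow from the call. Of all expressed members, called or not, 14 of 18 in the ATF4 list and 11 of 20 tRNA synthetases were above 1 in both sets. So were 5 of 12 serine genes and 5 of 14 transporters. When libraries were ranked anew within each set (7 against 7 of 21 in set 1 and 6 against 6 of 17 in set 2), all 20 were above 1, against 52.4% of expressed genes, and 11 were at least 2-fold higher, against 14.6%. Of all expressed members, 16 of 18 in the ATF4 list, 14 of 20 synthetases, 10 of 12 serine genes and 7 of 14 transporters were above 1 in that ranking. The sizes were smaller there. The ATF4 median was 0.96 in place of 1.86, Gars was 2.72-fold, Asns 2.02-fold, and Slc7a5 1.25-fold in place of 34.0-fold.

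Of the 120 genes called higher, 36 were also among the 122 (1.38% of 8823) called in the ranking within sets, and 12 of the 76 called lower were among 35 (0.397%). In control libraries, where set 2 can be set against set 1 without the Psat1 choice, 12 of the 20 called members were above 1 (44.1% of expressed genes) and 1, Pycr1, was at least 2-fold higher (4.62%).

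**Figure D4:**
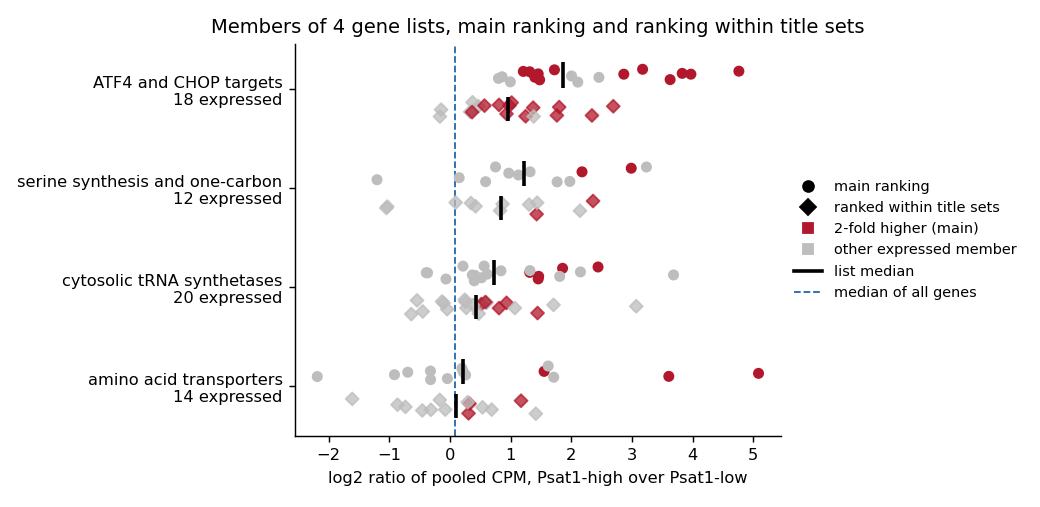
log2 ratio of pooled CPM, Psat1-high over Psat1-low, for each expressed member of 4 lists, in the main ranking (circles) and in the ranking within title sets (diamonds), with list medians as black bars and the median of all genes as a dashed line. ATF4 members lie right of the dashed line in the main ranking, and the medians shift from 1.86 to 0.96 for ATF4 targets and from 0.73 to 0.43 for tRNA synthetases in the ranking within sets.

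A ranking by Psat1 in the control libraries set the 22 highest in Psat1 against the 30 with no count, which replaced the planned 22 lowest because the 30 were tied. Apart from control 7 at 368 CPM, these 22 held 12.6 to 141 CPM of Psat1. The lowest Psat1-high experiment library held 302 CPM, so the 2 rankings do not compare like levels of Psat1. Only 12 of 9091 genes (0.132%) were called higher and 1 (0.011%) lower, and 1 of the 120 genes higher in experiment was among the 12. Of the 20 called members, 10 were above 1 there, against 51.8% of expressed genes. The ATF4 median was 0.00, the tRNA synthetase median 0.07 and the serine median -0.30. The astrocyte markers had a median log2 ratio of 1.91 in the control ranking.

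Astrocyte transcripts, whose cells are a known source of Psat1, were present on both sides. All 19 markers had a count on each side. Their sum had a median of 515 CPM (122 to 9580) in Psat1-high, 371 CPM (73.0 to 2053) in Psat1-low and 241 CPM (21.3 to 2335) in control libraries. Of 15 expressed astrocyte markers, 1 was called, against the background of 1.38%. It was the glutamate transporter Slc1a2 at 257 against 109 CPM, a gene named after its values were seen. In the experiment ranking the list had a median log2 ratio of 0.25 pooled, 1.14 with libraries weighted equally and 0.87 when libraries were ranked within title sets. Within sets, 15 of 15 expressed markers were above 1 and 6 were at least 2-fold higher, and the median lay between those of the ATF4 list (0.96) and the serine list (0.85). In the sides as first ranked, the astrocyte median was 1.597 in set 1 alone and -0.35 in set 2 alone. The part of astrocyte transcripts in the ratios within sets was not tested. The pooled list median moved between -1.13 without experiment 52, whose astrocyte sum was 9580 CPM, and 1.11 without experiment 37. With the 3 libraries of each side highest in glial markers left out, the ATF4 median was 1.81 and the tRNA synthetase median 0.84.

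Oligodendrocyte and GABAergic markers were lower on the high side when pooled. Oligodendrocyte markers had a median sum of 78.4 CPM (0 to 10020.5) on the high side and 1264 CPM (33.7 to 6110) on the low side, with Opalin and Ugt8a of 12 markers at 0 on the low side. Their median log2 ratio was -1.65 pooled but 0.20 in the ranking within sets, where 4 of 7 expressed members were above 1. GABAergic markers had a median sum of 72.4 CPM (0 to 1014) against 272 CPM (0 to 1823), and all 5 expressed members were lower, among them Gad1 at 93.5 against 287 CPM. Microglial sums had medians of 46.6 and 194 CPM, and the list was mixed, with a median log2 ratio of 0.18 pooled, -0.63 with libraries weighted equally and -2.34 within sets. Endothelial and blood cell lists had 0 expressed members. The part of these transcripts in the genes called lower was not tested.

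Dopaminergic markers were present on both sides. Of 21 expressed identity genes 0 were called, with a median log2 ratio of 0.03. Th, the rate-limiting enzyme of dopamine synthesis, was 1262, 6584 and 8299 CPM on the high side and 1047, 6102 and 10616 CPM on the low side. Slc6a3, the dopamine transporter, was 0.89-fold, Slc18a2, the vesicular transporter, 0.72-fold, and Ddc, which completes dopamine, 1.00-fold. Both sides were below control in Th, which was 5759 and 4931 CPM pooled against 9726 CPM. Among 5 expressed dorsal-tier genes the median was -1.76, led by Calb1 at 18.4 against 191 CPM, with a pair share of 37.3%, and that median was -0.35 without experiment 1.

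The unfolded protein response has further branches, through XBP1 and ATF6, that raise chaperones of the endoplasmic reticulum. Of 24 expressed members of that list, 1 was called, against the background of 1.38%, and the median was 0.34. The called gene was Dnajc3, an inhibitor of an eIF2 kinase, at 91.5 against 45.7 CPM, a gene named after its values were seen. The list sum overlapped fully, with medians of 2995 and 2932 CPM. In the mitochondrial chaperone list Hspa9, the mitochondrial Hsp70 mortalin, was called at 905 against 162 CPM, 5.58-fold, with a pair share of 95.3%, and was 5.86-fold in set 1 and 3.19-fold in set 2. The remaining 10 expressed members of that list were not called.

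Over all genes, the rule for the largest differences named 12 genes in each direction. Besides Phgdh, Slc7a5 and Sesn2, the higher genes included Eif2b1, the alpha subunit of eIF2B, which recycles eIF2 and senses its phosphorylation. It was 107 against 4.85 CPM, with counts in 12 and 6 libraries, and its within-set ratio was 5.75. Phf10, a subunit of the BAF chromatin complex, was detected in 13 and 4 libraries (medians 47.4 and 0 CPM), although its within-set ratio was 1.34. The calcium-regulated transcription factor Nfatc2 was 204 against 17.1 CPM, but experiment 5 gave 45.1% of its high-side counts, and without that library the high side was 119 CPM and the ratio 6.97 in place of 11.9. Avil, an actin-binding protein, had counts in 7 high libraries and in 0 low libraries, at least 234-fold higher against a floor of 3 counts for the side, and its exons overlap Tsfm on the other strand. Ss18, Clic4, Cables2, Carm1 and Ddr1 complete the set. In set 1 Avil had no count on either side and Clic4 had 0 counts on the high side and 3 on the low side, so their direction there comes from the floor of 3 counts alone.

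Among the 12 lower genes, Bad, a pro-apoptotic BCL2 family member, was detected in 13 of 13 low libraries (median 42.6 CPM) and in 5 of 13 high libraries (median 0). Ctxn1, a small neuronal membrane protein, had counts in all 13 low and 5 high libraries, 141 against 20.3 CPM. Rgs8, a regulator of G protein signalling, was 92.9 against 9.54 CPM (61.8 CPM on the low side without experiment 4) and was 93.3 CPM in the median control library. Iqsec3, a synaptic exchange factor, was 51.1 against 3.92 CPM. Itpkc, B3galt5, Dexi, Mark1, Lhfpl5, Ppp2r5d and Cln8 had the same direction. Exons of Bad, Dexi, Itpkc, Rgs8 and Ppp2r5d overlap other-strand genes.

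Of 26 expressed pacemaking and ion channel genes, 2 were called lower, against 0.873% of all expressed genes. Cacna1c, the Cav1.2 calcium channel, was 38.2 CPM on the low side and 4.81 CPM on the high side, and the low side was 15.8 CPM without experiment 4. Nalcn, the sodium leak channel that sets resting excitability, had counts in 13 of 13 low libraries and 7 of 13 high libraries, with medians of 59.1 and 1.96 CPM. Its pooled ratio was 0.12, and 0.16 when libraries were ranked within sets. The channel list median was -0.20 and that of synaptic vesicle genes was -0.36, with 0 of 33 vesicle genes called.

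Immediate early genes had 1 call among 16 expressed members, against the background of 1.38%, and a median of 0.38. The called gene was Fosb at 183 against 56.2 CPM. Fosb was the other way in set 1 alone, at 0.77. Fos was 1674 against 933 CPM pooled, but its medians were 1104 and 970 CPM and its pair share 51.5%, and experiment 52 gave 38.8% of its counts on the high side. Trp53 was 52.7 against 7.66 CPM with a pair share of 69.8%, and 0 of 16 expressed p53 and apoptosis genes were called. Ribosomal protein genes had a median of 0.37 with 0 of 80 called, and this direction flipped to -0.15 in set 1 alone. The proteasome, autophagy, glycolysis, antioxidant and respiratory chain lists had 0 calls and medians from -0.10 to 0.08.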

How the data were processed

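Full-length cDNA of single pipette contents was sequenced in 104 libraries, of which 38 are titled experiment and 66 control. The authors deposited a table of whole-read counts by gene symbol. Per the submitters' processing notes, STAR 2.5.3a, featureCounts 1.5.3 and mm10 were used. The gene annotation and strand setting were not given in the sources used here. No library is tied to an animal, so no test, standard error or p-value was made.

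CPM was computed from the 45808 gene rows, leaving 92 ERCC spike-in rows out of totals. The 38 experiment libraries were ranked by Psat1 CPM and the 13 highest set against the 13 lowest. Expressed genes had a pooled CPM of at least 10 over the 26 libraries and a count in at least 4 libraries of either side. Pooled CPM divides summed counts of a gene by summed gene counts, and its ratio carries an exact binomial 95% interval of the split of counts. Reads carry no molecular identifiers, so intervals cover counting error only. A sum under 3 counts was raised to 3. The pair share counts ties as 0.5, and a gene was lower by the 2-fold rule at a pair share of 25% or less. Title set 1 holds experiment numbers up to 35 and control numbers up to 37. Of 5356 pairs of libraries, 0 had identical counts.

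The members, the 40 gene lists and the naming rules were chosen with earlier results of these data known. Text names the expressed members of 4 lists, the 12 highest and 12 lowest genes past the rule with the same direction in both title sets (sums under 3 counts raised to 3), 7 fixed genes, and up to 4 genes of each other list. Unnamed models, pseudogenes, ribosomal, mitochondrial-encoded, haemoglobin and sex-linked genes were left out of the ranked set. Alternatives were another weighting, a log2(CPM + 1) scale, edgeR 4.0.16 TMM scaling, totals without mitochondrial genes, other minimum CPM (0 or 50), other numbers of libraries, single title sets, left-out libraries and thinning to 400000 counts. Overlaps come from GENCODE gene models of GRCm38, and promoter sequences from RefSeq (GRCm38.p6), where 98 of the 120 genes called higher matched by symbol. Scripts used Python 3.11.15 with pandas 2.3.3 and were tested on simulated counts. The values of 1 listed gene are not reported here.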

Additional observations from a re-analysis of the deposited data

Results flagged for a closer look

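The 20 called members of the lists and the summed lists were checked for single libraries far from the rest, within each side and title set of 10 libraries (44 groups of values). A library was singled out when its gap to the next was a large share of the range, and 6 were. For values with a normal (bell-shaped) spread, chance does this in about 1 group in 20. Several of these groups hold counts of 0 and lack that spread, so the rate need not hold here. On the high side in set 2, experiment 52 had the lowest Cars, 4.462 in log2(CPM + 1) or 21.03 CPM, against 104 to 483 CPM in the other 9 libraries. Experiment 47 in the same group had no Phgdh count, a value of 0, against 103 to 447 CPM. In the low side of set 1, experiment 4 had no Gars count (0, against 23.7 to 533 CPM) and the lowest ATF4 and CHOP sum, 9.479 in log2 or 713 CPM, against 1356 to 2158 CPM. Experiment 3 had no Slc3a2 count (0, against 53.5 to 518 CPM). Experiment 26 was the only library of that group with Phgdh, 5.464 in log2(CPM + 1) or 43.1 CPM.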

How the results depend on the processing

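No paired analysis was possible because both sides come from the experiment titles, share no replicate number and were compared without a test. For 44 called named genes, 13 settings gave 572 ratios, and 569 kept their direction. The reversals were in title set 1 alone, in log2, for Slc3a2 (-0.040), Gpt2 (-2.41) and Fosb (-0.38). Clic4, with 0 counts against 3, and Avil, with none, have no direction in set 1 beyond the floor of 3 counts. Leaving out 1 library moved 27 of the 44 ratios by over 1.5 times, and brought 6 nearer to 1 by that much: Cacna1c, Itpkc, Mark1 and Rgs8 without experiment 4 (3.29, 43.9, 6.35 and 6.47-fold lower), Nfatc2 without experiment 5 and Sesn2 without experiment 46. All 44 kept their direction, and Eif2s2 alone fell under 2-fold (1.89 without experiment 46). These single-gene checks were chosen after seeing the data. The counts of genes higher and lower, 120 and 76, became 297 and 161 with 10 libraries a side, 28 and 27 with 19, 343 and 829 in set 1 alone, 450 and 534 in set 2 alone, and 196 and 147 without the 3 libraries of each side highest in glial markers. The count lower was 42 at a minimum of 50 CPM, 35 in the ranking within sets, 181 after thinning, and 268 without the Psat1-low libraries shallower than every Psat1-high library (7 kept, an alternative chosen after seeing the data). The ATF4 median of 1.86 became 1.29 with 19 libraries a side and 0.96 both within sets and in set 1 alone. The log2 gap between the lowest high and the highest low sum, 0.57 for ATF4 and 0.01 for tRNA synthetases, reversed to -1.47 and -1.19 with 19 libraries a side and to -1.47 and -0.87 within sets, where libraries between the sides are included. Oligodendrocyte precursor markers, with 2 expressed genes and a median of -1.90, reversed to 0.32 and 0.67 in the same settings, oligodendrocyte markers changed from -1.65 to 0.20 within sets, and ribosomal proteins to -0.15 in set 1 alone. With each library left out in turn, the counts were 115 to 176 higher and 72 to 124 lower. The medians were then 1.62 to 2.00 for ATF4, 0.64 to 0.94 for tRNA synthetases, 0.84 to 1.53 for serine genes and -0.07 to 0.41 for transporters, and the gaps 0.57 to 0.73 and 0.01 to 0.10. The chaperone median was 0.10 to 0.53 and the ribosomal one 0.08 to 0.45. Shallow low libraries limit what counts of 0 show there.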

Other observations

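The genes named here lie outside the lists described above or were not called by the 2-fold rule, and they were chosen after their values were seen. Sqstm1, which encodes the autophagy receptor p62, had counts in all 13 Psat1-high and all 13 Psat1-low libraries. Its pooled level was 1165 CPM on the high side and 636.7 CPM on the low side, and the high library was above the low one in 96.4% of pairs. Psat1 itself aside, 2 genes (Gars and Asns) ranked above it by that share, and its difference in pooled level was 0.87 on the log2 scale, under 2-fold. Among the 39 expressed genes of the autophagy and lysosome list, which holds Sqstm1, none was called, and the median log2 ratio was -0.10. Ubqln2, a ubiquitin-binding shuttle factor, was at 149.6 CPM on the high side and 55.1 CPM on the low side, with the high library above in 89.9% of pairs.

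Several large pooled ratios rested on few libraries. Myc, the growth-linked transcription factor, had 528 counts in 4 of the high libraries and no count on the low side, and 78.8% of its high-side counts came from experiment library 52. Abca1, the cholesterol exporter, had counts in 7 high and 2 low libraries, at pooled levels of 25.7 and 0.43 CPM, and the high library was above in 72.8% of pairs. Gfra1, a co-receptor for GDNF, had 1 count on the high side and 1088 counts in 5 of the low libraries, and 58.4% of the latter came from experiment library 40. In the control libraries Gfra1 was detected in 48, with a highest level of 858.4 CPM. When the libraries were ranked by Psat1 within each title set, the Gfra1 log2 ratio was -3.98, against -8.70 in the ranking over all experiment libraries.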
